A study of Mus musculus with 2 samples.

Results

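The variable part of an antibody heavy chain is encoded by Ighv genes, and all 185 rows of the deposited count tables whose symbol starts with Ighv were taken, out of 32285 genes (32158 of them matched to a symbol). The rows held 183 distinct symbols, all on chromosome 12, between bases 113572927 and 116010093 of GRCm38 (mm10), with 183 rows on the minus strand and 2 on the plus strand. GENCODE M21 annotated 113 as V genes, 2 as LV genes and 70 as pseudogenes, and the first number of the symbol placed them in 16 subgroups. The libraries came from single-cell 3' RNA sequencing on the 10x platform of live CD45+ splenocytes 8 days after mice received 1000000 PFU of LCMV-cl13 intravenously. This lymphocytic choriomeningitis virus variant sets up a lasting infection. PEP-WT mice carried wild type Ptpn22, which encodes the phosphatase PEP, and PEP-619WW mice carried on both alleles an arginine to tryptophan substitution made by CRISPR/Cas9 on C57BL/6. All animals were infected, were 6 to 12 weeks old, and no mock-infected library was used here. The cells of 4 to 5 mice were pooled into 1 library per genotype, so a difference between the libraries had no replicate check, and the mice of a pool cannot be told apart. The labels of both samples name liver, Jurkat cells and tumor infiltrating cells, while the protocol text and the study describe spleen. Of the 2 runs deposited for each genotype, the one used here held 14821 and 8576 barcodes. The other held 9539 and 11029, the same cell numbers that the methods give for both libraries. By the class rules used below that run held 2 B, 72 T and 0 Mzb1-high barcodes in PEP-WT and 500 B, 1292 T and 15 Mzb1-high barcodes in PEP-619WW. The labels list both runs under the same samples, and to which of them the tissue, day, sort and pooling above apply is not settled by these numbers. Intervals are 95% and cover counting error only.

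In a developing B cell, recombination joins 1 Ighv gene to a D and a J segment on each chromosome that rearranges, and a single productive heavy chain is normally expressed. The V region contacts antigen, while the constant gene (Ighm, Ighd, Ighg1, Ighg2b, Ighg2c, Ighg3, Ighe or Igha) sets the isotype and can be exchanged by class switching without changing the V gene. Plasma cells and plasmablasts are the antibody-secreting descendants of B cells and carry far more immunoglobulin transcripts than resting B cells. The V segment lies at the 5' end of the transcript and the assay counts molecules from the 3' end, so most immunoglobulin molecules were seen through their constant gene only.

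The sequences below are the last 294 bases of the annotated transcript, most or all of the V segment, from GENCODE M21 on GRCm38, where all 113 V genes had a sequence. They are shown because Ighv1-82 and Ighv9-3 led the most barcodes in both libraries, each beside a close relative that led far fewer or was used unequally, and because the close relatives Ighv10-1 and Ighv10-3 went opposite ways between the libraries. Ighv1-82 (chr12:115952538-115952831, minus strand) and Ighv1-80 (chr12:115912344-115912637, minus strand) differed at 11 bases (96.3% identity), Ighv9-3 (chr12:114140692-114140985, minus strand) and Ighv9-2 (chr12:114109001-114109294, minus strand) at 15 bases (94.9%), and Ighv10-1 (chr12:114479005-114479298, minus strand) and Ighv10-3 (chr12:114523441-114523734, minus strand) at 10 bases (96.6%). Capitals mark the bases that differ within a pair.
Ighv1-82: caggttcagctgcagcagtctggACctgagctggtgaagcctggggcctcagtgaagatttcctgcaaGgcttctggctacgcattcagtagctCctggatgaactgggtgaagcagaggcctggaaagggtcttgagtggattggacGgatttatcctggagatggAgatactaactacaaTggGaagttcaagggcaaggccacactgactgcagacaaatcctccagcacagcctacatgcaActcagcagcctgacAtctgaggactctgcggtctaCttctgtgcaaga
Ighv1-80: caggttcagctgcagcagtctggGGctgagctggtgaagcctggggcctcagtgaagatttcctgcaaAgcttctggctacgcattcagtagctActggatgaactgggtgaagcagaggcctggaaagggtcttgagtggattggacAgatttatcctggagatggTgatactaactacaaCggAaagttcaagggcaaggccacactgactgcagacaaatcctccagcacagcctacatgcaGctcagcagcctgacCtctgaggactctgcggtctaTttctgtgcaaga
Ighv9-3: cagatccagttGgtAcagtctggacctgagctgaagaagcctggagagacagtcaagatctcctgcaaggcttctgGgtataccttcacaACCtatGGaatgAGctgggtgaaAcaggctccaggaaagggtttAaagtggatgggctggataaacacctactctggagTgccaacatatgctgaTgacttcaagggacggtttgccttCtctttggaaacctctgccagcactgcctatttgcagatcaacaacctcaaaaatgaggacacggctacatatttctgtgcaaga
Ighv9-2: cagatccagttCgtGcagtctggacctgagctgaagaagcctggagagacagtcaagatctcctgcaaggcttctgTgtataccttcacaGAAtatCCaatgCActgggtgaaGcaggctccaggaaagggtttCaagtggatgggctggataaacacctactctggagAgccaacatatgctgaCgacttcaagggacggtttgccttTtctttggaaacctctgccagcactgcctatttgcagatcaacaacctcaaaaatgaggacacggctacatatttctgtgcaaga
Ighv10-1: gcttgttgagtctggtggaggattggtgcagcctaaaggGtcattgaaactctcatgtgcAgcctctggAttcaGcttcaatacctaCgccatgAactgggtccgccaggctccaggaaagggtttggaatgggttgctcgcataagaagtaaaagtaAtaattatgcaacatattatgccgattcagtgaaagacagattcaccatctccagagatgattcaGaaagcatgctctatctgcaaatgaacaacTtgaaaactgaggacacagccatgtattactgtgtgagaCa
Ighv10-3: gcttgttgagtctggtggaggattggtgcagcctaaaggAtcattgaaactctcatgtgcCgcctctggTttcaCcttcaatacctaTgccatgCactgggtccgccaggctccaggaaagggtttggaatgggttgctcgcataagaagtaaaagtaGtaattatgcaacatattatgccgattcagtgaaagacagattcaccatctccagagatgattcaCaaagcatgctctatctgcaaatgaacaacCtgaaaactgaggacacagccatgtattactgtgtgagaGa

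Near-identical genes can limit what is counted, since a read that maps equally well to several genes is not counted for any. Ighv1-62-2 (chr12:115446409-115446702) and Ighv1-71 (chr12:115742205-115742498), both on the minus strand, were identical over these 294 bases, and 9.34% and 2.96% of their 90-base windows, the length of the sequenced read, occurred in no other Ighv transcript. They led 1 barcode and 0 barcodes, so their low values are uncertain. The same holds for Ighv1-72, where 47.2% of windows were unique. Of the 113 V genes, 61 had no shared window, and among the 46 that led at least 10 barcodes over both libraries the lowest unique share was 64.1%. The median unique share was 100% for the genes that led a barcode and 100% for the 24 that led none (means 93.2% and 90.5%). The part of shared windows in low counts was not tested.

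The PEP-WT library held 14821 barcodes, 77916082 UMIs (unique molecules) and 20124 Ighv UMIs, and the PEP-619WW library 8576 barcodes, 56745578 UMIs and 21379 Ighv UMIs. Of 115 V and LV genes, 107 had a UMI in at least 1 library. The 8 without were Ighv5-8, Ighv2-7, Ighv16-1, Ighv6-4, Ighv1-13, Ighv1-16, Ighv1-62-1 and Ighv8-13. Of the 70 pseudogenes, 25 had a UMI, and together they gave 0.901% of the Ighv UMIs. The libraries shared 39 barcode sequences, which were kept, since the same sequence in different libraries marks different cells, and no doublets were called or removed.

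Almost all Ighv UMIs sat in barcodes with at least 5 UMIs of Mzb1, a chaperone of antibody-secreting cells. The PEP-WT library had 2361 of these Mzb1-high barcodes and the PEP-619WW library 1893, with a median of 9899 and 11400 UMIs, and held 92.8% and 94.6% of the Ighv UMIs of their library. The class was mixed. At least 10 UMIs of Jchain, the joining chain of secreted IgM and IgA that is also made by other plasma cells, were present in 1328 (56.2%) and 1232 (65.1%) of them, which carried 98.0% and 98.4% of the Ighv UMIs of the class, while a UMI of Ms4a1, a B cell surface marker, was present in 35.6% and 31.7% of these Jchain-high barcodes and in 94.2% and 71.7% of the Jchain-low remainder. The class is therefore called Mzb1-high and not plasma cells.

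Of all UMIs in Mzb1-high barcodes, Ighv genes made up 0.0618% in PEP-WT (18670 UMIs) and 0.0730% in PEP-619WW (20222 UMIs), a ratio of 1.18 (1.16 to 1.21). The size and direction of that ratio moved with the makeup of the class. It was 1.04 (1.02 to 1.07) over Mzb1-high barcodes with at least 10 Jchain UMIs and 0.908 (0.886 to 0.930) over those with no Ms4a1 UMI, 2 settings chosen after the data were seen. At least 1 Ighv UMI was found in 62.5% (60.5 to 64.4) and 67.9% (65.8 to 70.0) of Mzb1-high barcodes, and in 31.1% and 35.5% once each was thinned to 1000 UMIs.

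B barcodes, defined by Cd79a and Ms4a1 with fewer than 5 Mzb1 UMIs, numbered 5515 and 2313 at a median of 2460 and 3048 UMIs. They held 1010 and 526 Ighv UMIs, or 56.1 and 60.2 CPM (UMIs per 1000000 UMIs of the class), against 618 and 730 CPM in Mzb1-high barcodes. An Ighv UMI was seen in 15.6% (14.7 to 16.6) and 18.5% (16.9 to 20.1) of them. T barcodes outside the Mzb1-high class, which should lack rearranged Ighv transcripts, gave 2.43% (1.76 to 3.27) and 5.04% (3.78 to 6.58) at a median of 3981 and 6286 UMIs, and 4.26 and 6.91 CPM of Ighv genes. Thinned to 1000 UMIs, the shares were 6.23% and 6.67% in B barcodes and 0.828% and 1.23% in T barcodes, so B barcodes stood above the background in both libraries.

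The T class as a whole (Cd3e present, Cd79a absent) numbered 1754 and 1057 barcodes with 252 and 297 Ighv UMIs. Most came from the 25 and 46 T barcodes that were also Mzb1-high, and all 13 and 12 T barcodes that could be given an Ighv gene were among these. The genes with the most UMIs there were Ighv9-3 (55), Ighv1-80 (31), Ighv7-3 (29), Ighv5-6 (19) and Ighv14-2 (14) in PEP-WT, and Ighv1-81 (77), Ighv9-3 (41), Ighv1-22 (37), Ighv5-9-1 (31) and Ighv1-80 (13) in PEP-619WW. Outside the Mzb1-high class none of these 8 genes exceeded 5 UMIs in a library.

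Barcodes with many V transcripts mostly carried 1 gene. Among Mzb1-high barcodes with at least 10 Ighv UMIs (692 and 660), a single gene supplied every Ighv UMI in 59.8% (56.1 to 63.5) of PEP-WT and 57.0% (53.1 to 60.8) of PEP-619WW barcodes, and at least 95% of them in 66.5% and 66.5%. A second gene with at least 3 UMIs occurred in 19.8% and 22.7%. The commonest such pairs were Ighv1-53 with Ighv1-55 (3 and 7 barcodes) and Ighv1-82 with its neighbouring pseudogene Ighv1-83 (7 and 1), followed by the 2 leading genes Ighv1-82 and Ighv9-3 (0 and 7). A barcode was therefore assigned to its leading Ighv gene where it had at least 5 Ighv UMIs and 60% of them came from that gene, which gave 866 PEP-WT and 776 PEP-619WW barcodes, and each assigned barcode was counted once. Of Mzb1-high barcodes with at least 500 heavy chain constant UMIs (957 and 852), 87.0% and 92.1% had 5 or more Ighv UMIs, against 39.2% and 44.5% of all Mzb1-high barcodes, and over the class there were 15.8 and 14.7 Ighv UMIs per 1000 constant UMIs.

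Ighv1-82 and Ighv9-3 led the assigned Mzb1-high barcodes of both libraries. Ighv1-82 led 105 of 866 in PEP-WT, which was 12.1% (10.0 to 14.5), and 106 of 776 in PEP-619WW, which was 13.7% (11.3 to 16.3). Ighv9-3 led 89 (10.3%, 8.33 to 12.5) and 76 (9.79%, 7.79 to 12.1). The intervals of the differences included 0 for both, at 1.54 points (-1.70 to 4.82) for Ighv1-82 and -0.48 points (-3.39 to 2.46) for Ighv9-3. No other gene reached 5% in either library.

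The next genes were Ighv1-26 with 43 PEP-WT and 31 PEP-619WW barcodes, and Ighv8-12 with 34 and 28. Ighv3-6 and Ighv8-8 each led 20 and 31. Ighv1-81 (22 and 21) and Ighv1-64 (22 and 19) were near equal in the libraries. Ighv1-80 led 18 and 34 barcodes, a difference of 2.30 points (0.597 to 4.15), and Ighv1-15 stood at 28 and 12, a difference of -1.69 points (-3.23 to -0.18). Ighv1-39 (20 and 12) and Ighv7-3 (10 and 17) had intervals that included 0.

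**Figure D1:**
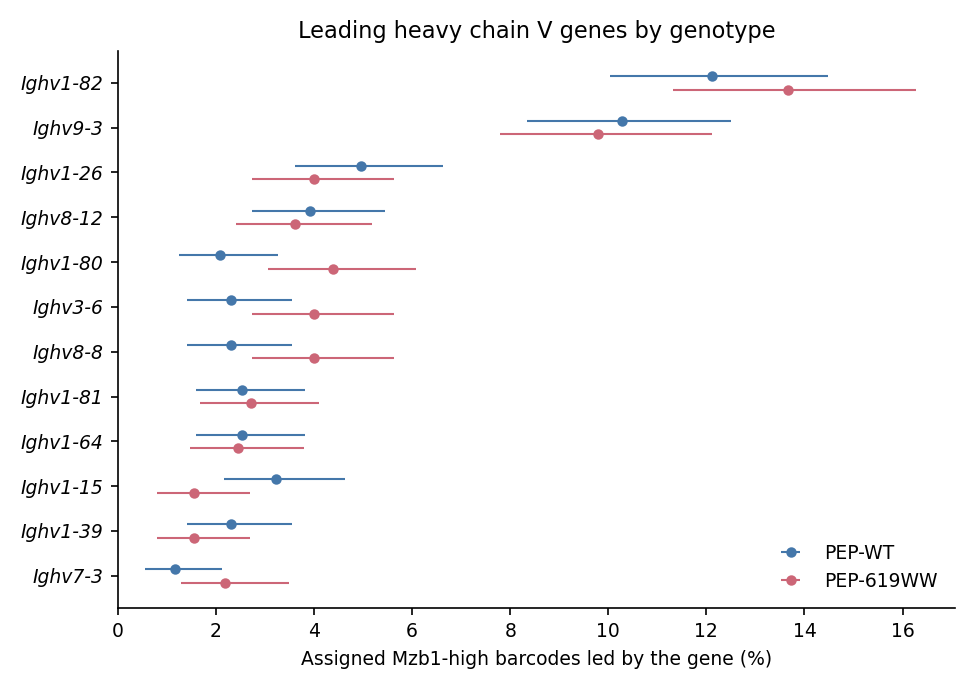
Share of assigned Mzb1-high barcodes (x axis, percent) led by each gene that ranked in the first 10 of either library, with PEP-WT in blue, PEP-619WW in red, and exact 95% binomial intervals as bars. Ighv1-82 (12.1% and 13.7%) and Ighv9-3 (10.3% and 9.79%) stand apart from the other genes in both libraries.

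Usage was spread over many genes in both libraries. Each library had 81 leading genes, of which 71 (87.7% of each list) led in both, and the 20 genes that led in 1 library only led at most 6 barcodes each. Among assigned PEP-WT barcodes the first 10 genes led 46.5%, among PEP-619WW barcodes 50.8%, and 8 of the 10 were shared (80% of each list). The inverse Simpson index is the number of equally used genes that would give the same concentration. It was 25.1 and 23.0, a ratio of 0.915, with no interval computed. It was 50.8 and 48.6 over the Ighv UMIs of B barcodes, against 23.4 and 22.2 over those of Mzb1-high barcodes. Over the 91 genes that led in either library, the barcode counts of the libraries had a Pearson r of 0.943 and a Spearman rho of 0.789, a description across genes that share 2 libraries.

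The genes were ordered along the locus from the D segments outward and cut into a proximal, a middle and a distal part of 62, 62 and 61 genes. The distal part, which holds Ighv1-82, led 41.6% (38.3 to 44.9) of PEP-WT and 45.4% (41.8 to 48.9) of PEP-619WW barcodes. The proximal part, which holds Ighv9-3, led 32.1% and 34.0%. The middle part was lower in PEP-619WW, at 26.3% (23.4 to 29.4) and 20.6% (17.8 to 23.6), a difference of -5.71 points (-9.77 to -1.60). Counted by UMIs, the middle part gave 24.2% and 19.0% in Mzb1-high barcodes. Of the UMIs of B barcodes it gave 28.9% (26.1 to 31.8) and 30.2% (26.3 to 34.4), with no lower value in PEP-619WW. Of the 28 leading genes of the middle part, 15 were lower and 13 higher in PEP-619WW. The interval left out 0 for 3 of the lower genes (Ighv1-15, Ighv3-8 and Ighv10-3) and 1 of the higher (Ighv10-1).

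**Figure D2:**
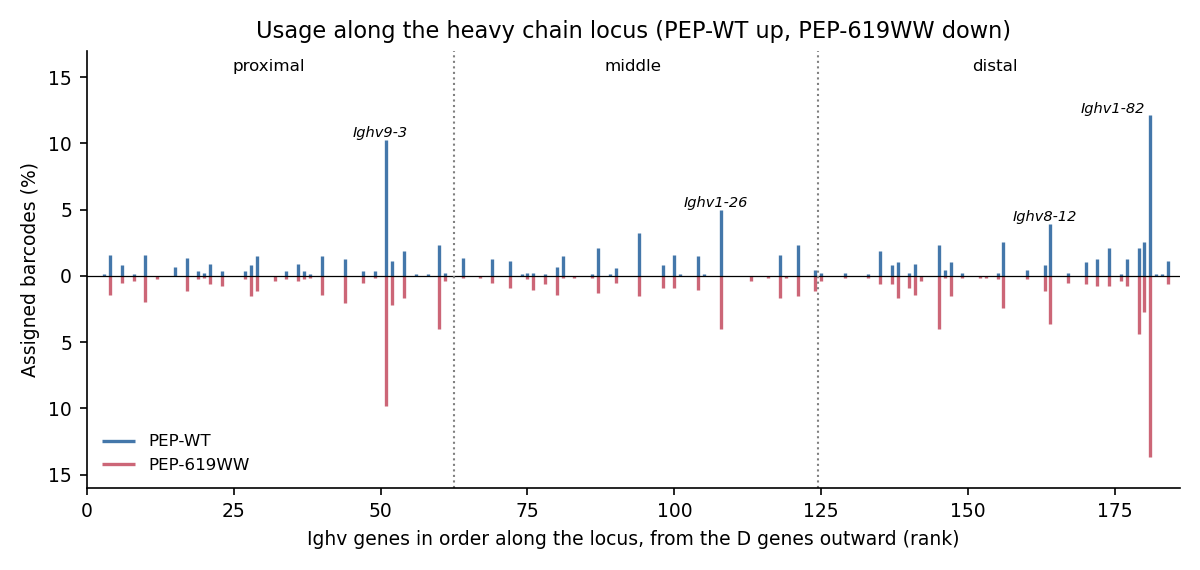
Share of assigned Mzb1-high barcodes (y axis, percent) for each of the 185 Ighv rows in their order along the locus (x axis, rank from the D segments), with PEP-WT drawn upward in blue and PEP-619WW downward in red, and dotted lines between the 3 parts. The 2 tallest lines are Ighv9-3 in the proximal and Ighv1-82 in the distal part in both libraries, and the middle part totals 26.3% and 20.6%.

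Subgroup 1, the largest with 54 V genes, led 484 PEP-WT barcodes (55.9%, 52.5 to 59.2) and 430 PEP-619WW barcodes (55.4%, 51.8 to 58.9), a difference of -0.48 points (-5.28 to 4.32). Pooled UMIs gave -1.33 points (-2.32 to -0.34), an interval that left out 0. Subgroup 9 followed with 11.2% and 10.8%, carried by Ighv9-3. Subgroup 5 led 7.16% and 6.31%, subgroup 8 led 6.35% and 7.60%, subgroup 14 led 5.54% and 5.54%, subgroup 3 led 3.93% and 4.25%, and subgroup 2 led 3.70% and 4.51%. Counted by barcodes, the interval of the difference included 0 for each of the 16 subgroups. Subgroups 11, 12 and 16 led no barcode, where the exact interval of each share reached up to 0.425% in PEP-WT and 0.474% in PEP-619WW. Subgroup 16, a single gene, had no UMI in either library.

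B barcodes had too few Ighv UMIs to be assigned one by one (1 and 2 barcodes passed), so their UMIs were pooled, and Mzb1-high barcodes were counted the same way beside them. Subgroup 1 gave 51.0% (47.9 to 54.1) and 51.1% (46.8 to 55.5) of B barcode UMIs, and 52.0% and 50.7% of those in Mzb1-high barcodes. Subgroup 9 was lower in B barcodes, at 4.26% (3.10 to 5.69) and 4.75% (3.10 to 6.94) against 13.2% and 12.8%. Subgroup 5 was higher in B barcodes, at 11.98% (10.0 to 14.1) and 11.8% (9.16 to 14.9) against 7.75% and 7.28%. The sign of both gaps was the same in the 2 libraries, and a UMI sum in Mzb1-high barcodes leans on a few barcodes, since the 1% with the most Ighv UMIs held 9.55% and 10.4% of them.

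The 2 leading genes were lower in B barcodes by the same count of UMIs, although subgroup 1, which holds Ighv1-82, was near equal. Ighv1-82 took 4.65% (3.44 to 6.14) and 5.13% (3.41 to 7.38) of B barcode UMIs against 12.5% and 13.6% of those in Mzb1-high barcodes. Ighv9-3 took 2.87% (1.93 to 4.10) and 3.99% (2.49 to 6.04) against 12.1% and 10.3%. Ighv8-8 took 3.86% and 2.28% of B barcode UMIs against 2.27% and 2.85%, so its order differed between the libraries. The few assigned B barcodes carried Ighv9-3 in PEP-WT and Ighv5-6 and Ighv1-85 in PEP-619WW.

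**Figure D3:**
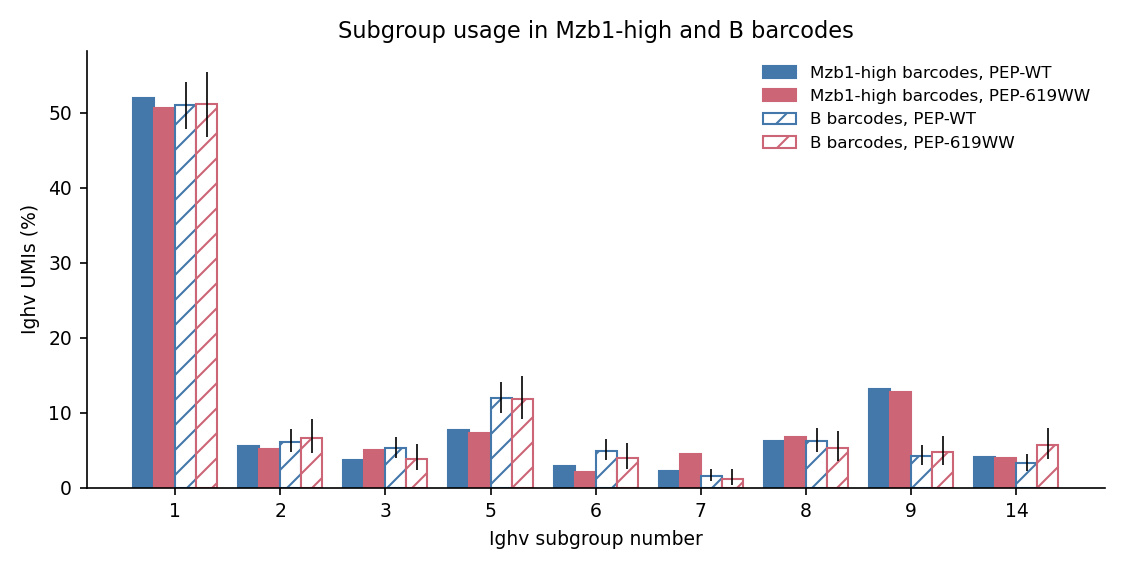
Percent of Ighv UMIs (y axis) from each of the 9 most used subgroups (x axis) in Mzb1-high barcodes (filled bars) and B barcodes (hatched bars, with exact 95% binomial intervals), PEP-WT in blue and PEP-619WW in red. Subgroup 9 stands at 13.2% and 12.8% in Mzb1-high barcodes against 4.26% and 4.75% in B barcodes, and subgroup 5 at 7.75% and 7.28% against 11.98% and 11.8%.

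Single Ighv genes stood higher in one library or in the other. With at least 50 UMIs over both libraries, 27 of 75 Ighv genes (36.0%) were at least 2-fold apart in CPM in Mzb1-high barcodes, 13 higher and 14 lower in PEP-619WW, against 2.23% of all 11675 genes (1.07% higher and 1.16% lower). Their median log2 ratio was 0.09, against -0.00 over all genes, and their median UMI sum was 297 against 804. In B barcodes 0 of 5 Ighv genes with enough UMIs were 2-fold apart, against 2.03% of 10768 genes (1.16% higher and 0.873% lower). With only 5 genes, the 0 does not show that the libraries were alike in B barcodes, and at lower UMI limits the count was above 0.

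The UMIs of 1 barcode carried part of these ratios. In 4 of the 27 genes 1 barcode held at least 50% of the UMIs in the library where the gene was higher, and 21 of the 27 stayed at least 2-fold apart in the same direction without that barcode. Of the 27, 12 led at most 5 barcodes over both libraries. Ighv1-23 had 56 UMIs in PEP-WT, 53 of them in 1 barcode, and 6 in PEP-619WW. Ighv5-2 had 94 UMIs, 81 of them in 1 barcode, against 13. Without that barcode the ratio of PEP-619WW to PEP-WT moved from 0.117 to 2.18 for Ighv1-23 and from 0.151 to 1.09 for Ighv5-2.

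The lowest ratios were those of Ighv10-3 and Ighv3-8, where 1 barcode held 13.9% and 12.8% of the PEP-WT UMIs. Ighv10-3 had 201 UMIs in PEP-WT and 13 in PEP-619WW, a ratio of 0.0706 (0.0370 to 0.124), and led 13 barcodes and 1 barcode (-1.37 points, -2.43 to -0.51). Ighv3-8 had 243 and 18 UMIs, a ratio of 0.0809 (0.0471 to 0.131), and led 12 and 1 (-1.26 points, -2.28 to -0.42). Ighv5-9 had 104 and 18 UMIs and led 6 and 0. Other genes of these subgroups stood on either side. Ighv10-1 was higher in PEP-619WW at 35 and 129 UMIs, a ratio of 4.02 (2.75 to 6.03), leading 2 and 8 barcodes, and so was Ighv3-6 at 392 and 984 UMIs, a ratio of 2.74 (2.44 to 3.09), leading 20 and 31, while Ighv3-5 had 40 and 0 UMIs. In subgroup 5, Ighv5-2 and Ighv5-4 (241 and 82 UMIs) were lower and Ighv5-16 (151 and 352 UMIs) was higher.

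Among the genes higher in PEP-619WW, Ighv1-56 had 0 UMIs in PEP-WT and 70 in PEP-619WW, at least 25.5-fold higher against a floor of 3 UMIs in the PEP-WT library, and led 0 and 3 barcodes. A single barcode held 31 of the 70, and without it the bound was 14.2-fold. Ighv2-4 had 5 and 109 UMIs, 69 of them in 1 barcode, and led 0 and 2. Ighv9-1 had 65 and 441 UMIs, a ratio of 7.41 (5.70 to 9.77), but led 3 and 4 barcodes, and 1 barcode held 126 of the 441. Ighv1-54 had 36 and 137 UMIs and led 2 and 7 barcodes. Ighv1-80 had 404 and 1013 UMIs, a ratio of 2.74 (2.44 to 3.08), and led the most barcodes among the genes at least 2-fold higher in PEP-619WW. Its ratio was 2.45 without the barcode that held most of its UMIs.

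Counted by barcodes, 8 of the 91 leading genes had an interval of the difference that left out 0, with no adjustment for the 91 comparisons. Ighv1-80 and Ighv10-1 were higher in PEP-619WW. Ighv5-9, Ighv3-8, Ighv10-3, Ighv1-15, Ighv1-50 (16 and 5) and Ighv1-76 (18 and 6) were lower. Cells that descend from 1 founder share their V gene and were pooled within and across mice, so barcodes led by the same gene are not independent, and neither clones nor mice can be told apart here.

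**Figure D4:**
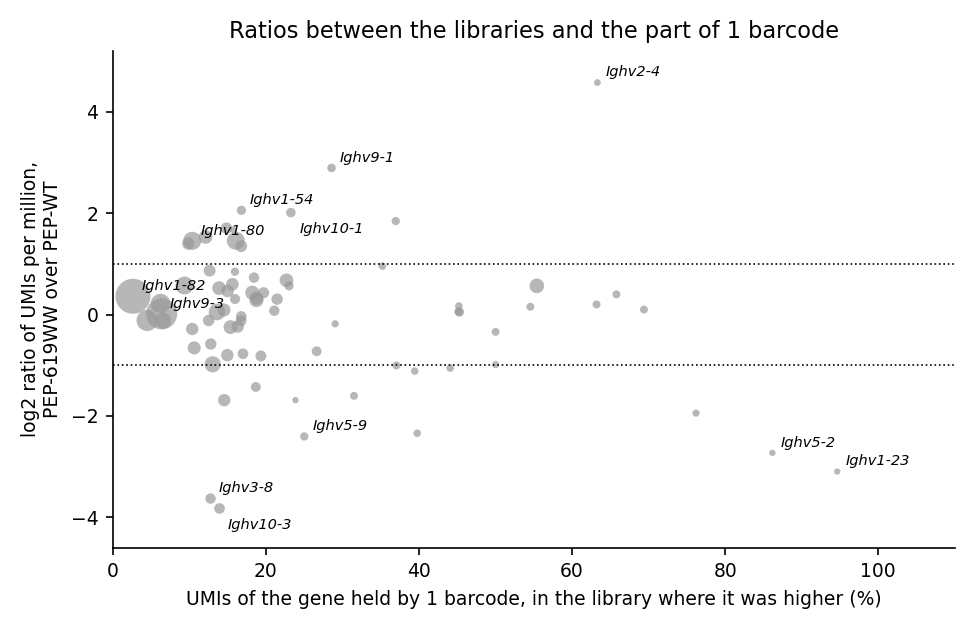
log2 ratio of CPM (UMIs per 1000000) in Mzb1-high barcodes, PEP-619WW over PEP-WT (y axis), against the percent of the gene's UMIs that 1 barcode held in the library where the gene was higher (x axis), for Ighv genes with at least 50 UMIs over both libraries and a UMI in each. Point area grows with the number of barcodes led, and dotted lines mark a 2-fold difference. Ighv1-82 and Ighv9-3 lie near 0, Ighv10-3 and Ighv3-8 lie lowest with under 15% of UMIs in 1 barcode, and Ighv5-2, Ighv1-23 and Ighv2-4 lie far to the right.

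Isotype was read from the leading heavy chain constant gene of the barcode. Most assigned barcodes were switched to IgG2c, with 613 in PEP-WT (70.8%, 67.6 to 73.8) and 510 in PEP-619WW (65.7%, 62.3 to 69.1). IgG2b followed with 106 (12.2%) and 122 (15.7%), then IgM with 81 (9.35%) and 68 (8.76%), IgG3 with 44 and 41, IgG1 with 11 and 22, and IgA with 10 and 13. IgE was found in 1 barcode, in PEP-WT. The class-switched share of assigned barcodes differed by 0.59 points (-2.23 to 3.37), and by 3.40 points (0.401 to 6.33) when 2 Ighv UMIs and 80% from 1 gene sufficed. Over all Mzb1-high barcodes, assigned or not, 1070 (45.3%) and 531 (28.1%) were IgM. Of those with an isotype 54.2% (52.1 to 56.2) and 71.9% (69.8 to 73.9) were switched, 17.7 points (14.8 to 20.5) higher in PEP-619WW, where fewer barcodes of the class held Ms4a1 (45.7% against 61.2% in PEP-WT). The assigned set thus leans to switched cells in both libraries, and its switched share does not stand for the class. T barcodes outside the Mzb1-high class also held constant UMIs, 5069 in 1729 PEP-WT and 6743 in 1011 PEP-619WW barcodes. An isotype needed only 3 such UMIs and no background was subtracted. The part of this background in the 17.7 points was not tested.

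Ighv1-82 was most frequent among IgG3 barcodes, where it led 10 of 44 in PEP-WT (22.7%, 11.5 to 37.8) and 9 of 41 in PEP-619WW (22.0%, 10.6 to 37.6). It led 82 of 613 (13.4%, 10.8 to 16.3) and 76 of 510 (14.9%, 11.9 to 18.3) IgG2c barcodes, 7 of 106 (6.60%, 2.70 to 13.1) and 15 of 122 (12.3%, 7.05 to 19.5) IgG2b barcodes, and 6 of 81 (7.41%) and 4 of 68 (5.88%) IgM barcodes. Ighv9-3 was the first gene of IgG2b, with 11 of 106 (10.4%, 5.30 to 17.8) and 17 of 122 (13.9%, 8.33 to 21.4), and led 3 of 81 and 3 of 68 IgM barcodes. The intervals of IgM and IgG3 overlapped for both genes. Ighv1-26 tied with Ighv1-82 as first gene of IgM in PEP-WT, at 6 barcodes each, and 4 genes (Ighv1-72, Ighv1-80, Ighv1-81 and Ighv1-82) tied for IgG1 in PEP-619WW, at 2 of 22 each. The inverse Simpson index was 26.1 and 34.5 in IgM, 26.5 and 18.1 in IgG2b, 21.9 and 21.1 in IgG2c and 11.8 and 10.8 in IgG3 barcodes.

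Between switched and IgM barcodes of the same library, subgroup 3 differed most among the subgroups in PEP-WT, at 23 of 785 (2.93%) and 11 of 81 (13.6%), a difference of -10.7 points (-19.8 to -4.65). In PEP-619WW it was 29 of 708 (4.10%) and 4 of 68 (5.88%), a difference of -1.79 points (-10.2 to 2.18). Ighv9-3 was more frequent among switched barcodes by 7.25 points (0.329 to 10.7) in PEP-WT and 5.90 points (-2.14 to 9.70) in PEP-619WW, and subgroup 8 by 4.28 points (-2.01 to 6.95) and 6.72 points (0.0724 to 9.28). Subgroup 1 differed by -2.36 points (-13.1 to 9.05) and 4.32 points (-7.73 to 16.5). In PEP-WT, subgroup 6 led 15 of 785 (1.91%) switched and 6 of 81 (7.41%) IgM barcodes. The middle part of the locus led 198 (25.2%) and 30 (37.0%) of them. In PEP-619WW, subgroup 6 led 10 of 708 (1.41%) and 1 of 68 (1.47%), and the middle part 145 (20.5%) and 15 (22.1%). No interval was computed for the gaps of subgroup 6 and the middle part. Whether any of these gaps differed between the genotypes was not tested. In B barcodes, where 5220 and 2110 were IgM and 149 and 171 switched, subgroup 1 gave 51.6% and 51.9% of the Ighv UMIs of IgM barcodes and 35.7% (21.6 to 52.0) and 46.3% (34.0 to 58.9) of those of switched barcodes, from 42 and 67 UMIs. A UMI of Ighg2c was present in 57.7% and 79.9% of B barcodes, and no background was subtracted from their isotypes.

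**Figure D5:**
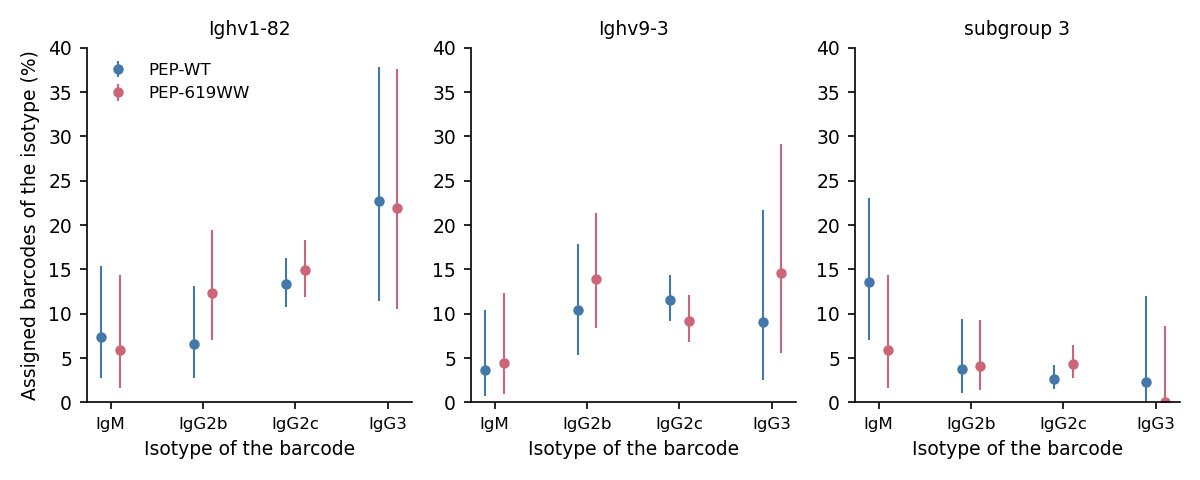
Share of the assigned Mzb1-high barcodes of an isotype (y axis, percent) led by Ighv1-82, by Ighv9-3 and by subgroup 3, for the 4 most frequent isotypes (x axis), PEP-WT in blue and PEP-619WW in red, with exact 95% binomial intervals. Ighv1-82 stands at 22.7% and 22.0% of IgG3 and at 7.41% and 5.88% of IgM barcodes, and subgroup 3 at 13.6% of IgM barcodes in PEP-WT.

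The light chain partner was read from Igkv genes by the same rule, a choice made after the values were seen. With lambda genes included, Iglv1 led 441 of 582 barcodes that could be given a light chain gene in PEP-WT, and 325 of 486 in PEP-619WW. Igkc, the kappa constant gene, was the leading light chain constant gene in 825 of 866 and 752 of 776 assigned barcodes, and gave 88.7% and 92.5% of the light chain constant UMIs of the barcodes led by Iglv1. Of Ighv9-3 barcodes with an Igkv gene, 35 of 72 (48.6%, 36.7 to 60.7) in PEP-WT and 38 of 70 (54.3%, 41.9 to 66.3) in PEP-619WW had Igkv12-46, against 5.76% and 10.7% of barcodes led by other Ighv genes. Ighv7-3 had the same partner in 8 of 9 and 15 of 16. Ighv1-82 had Igkv12-44 in 24 of 88 (27.3%) and 25 of 88 (28.4%), against 3.45% and 3.33% of other barcodes. Ighv8-12 had Igkv15-103 in 14 of 30 (46.7%, 28.3 to 65.7) and 6 of 24 (25.0%, 9.77 to 46.7), and Igkv12-89 in 10 of 30 and 8 of 24. Ighv1-82 also had Igkv12-46 in 11 and 18 of its barcodes and Igkv10-96 in 15 and 9. Ighv1-26 had Igkv6-17 in 8 of 37 and 5 of 28, and Ighv2-5 had Igkv17-121 in 8 of 9 and 4 of 8. These are the 9 pairs found in at least 8 barcodes of a library, a limit set after the values were seen, and no test was made.

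Among the constant genes, which report the same transcripts from their other end, Ighg1 was 2.03-fold higher in PEP-619WW Mzb1-high barcodes (14587 and 27111 UMIs), and Ighe stood at 251 and 29 UMIs (ratio 0.126, 0.083 to 0.186), so 2 of 8 were 2-fold apart, against 2.23% of all genes. Ighg1 was the leading constant gene of 42 and 40 Mzb1-high barcodes, and 7.88% and 20.3% of the class held a UMI of it. Ighe was the leading constant gene of 2 and 0 of these barcodes, and 2.12% and 1.37% of them held a UMI of it. How many UMIs of Ighg1 or Ighe sat in 1 barcode was not counted. In B barcodes Ighg1 was 2.80-fold, Ighg2b 3.45-fold and Ighg2c 2.14-fold higher in PEP-619WW. These were 3 of 7 constant genes with at least 50 UMIs, against 2.03% of all genes. Rag1 and Rag2, the recombinase that joins V genes, had 0 UMIs in the Mzb1-high barcodes of both libraries. Ms4a1-positive barcodes made up 61.2% of the Mzb1-high class in PEP-WT and 45.7% in PEP-619WW, and the 3 erythroid markers were lower and the 3 neutrophil markers summed higher in PEP-619WW (1059 and 186, and 873 and 1577 CPM). The part of these markers in the differences was not tested, beyond settings that left out barcodes. The Ighv share ratio was 0.908 without Mzb1-high barcodes that held an Ms4a1 UMI. It was 1.17 without barcodes that held a UMI of Cd3e, Lyz2, S100a8 or Siglech, where 435 PEP-WT and 278 PEP-619WW barcodes were assigned.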

How the data were processed

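The members and gene lists were chosen with earlier results of these data known. The authors aligned and counted the reads with Cell Ranger (the submitters' processing notes name version 6.0.0) on mm10, and deposited 1 table of raw counts (UMIs per gene and barcode) for each of 2 runs per genotype. The run used here is not the one whose cell numbers the methods give, and the sources do not say how the runs relate. Gene identifiers were joined to symbols and to GENCODE M21. Barcodes were not filtered, and doublets were not removed. Isotype needed at least 3 heavy chain constant UMIs. Named Ighv genes are the 10 leading most assigned Mzb1-high barcodes and the 5 leading most B barcodes per genotype, the 5 largest ratios in each direction (at least 50 UMIs), the first gene of each isotype with at least 20 barcodes and the 5 with most UMIs in T barcodes, with ties in order of symbol. Ighv1-50, Ighv1-76, Ighv1-53, Ighv1-55, Ighv1-83, Ighv9-2, Ighv2-5, Ighv3-5, Ighv5-4, Ighv5-16, Ighv1-62-2, Ighv1-71 and genes without UMIs were named after values were seen. With 1 library per genotype no test was made. Intervals are exact binomial (Clopper-Pearson) for shares, Newcombe for differences and exact Poisson for ratios, computed in python 3.11 with scipy. On simulated data only the 2-fold call, the ratio interval and the barcode assignment were tried, the call and the interval on independent Poisson counts. The intervals for shares and differences were not tried. All intervals cover counting error only, because UMIs of 1 barcode and cells of 1 clone are not independent. For fold bounds, a count of 0 was read as up to 3 counts. 15 alternatives were planned and 2 added after the data were seen.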

Additional observations from a re-analysis of the deposited data

Results flagged for a closer look

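The gap between class-switched and IgM barcodes had opposite signs in the libraries for 3 of the quantities compared. For subgroup 1 it was -2.36 points in PEP-WT and 4.32 points in PEP-619WW, for subgroup 14 it was 3.39 and -3.60 points, and for the proximal part of the locus it was 5.45 and -7.84 points. The signs for subgroup 1 turned with the setting: they were 16.6 and -3.15 points with 10 Ighv UMIs and 80% from 1 gene, 0.37 and -0.75 with pooled UMIs, 1.54 and 12.6 without barcodes that held a UMI of Cd3e, Lyz2, S100a8 or Siglech, and -3.41 and -0.49 with no Ms4a1 UMI. All 6 intervals of the reported gaps included 0, with 81 and 68 IgM barcodes, and the differences between the genotypes were not tested. Outside the quantities compared, the sign also differed for subgroups 2, 7 and 10, each of which led at most 5 IgM barcodes in a library. For subgroup 2 the switched and IgM shares were 3.95% and 1.23% in PEP-WT, and 4.24% and 7.35% in PEP-619WW.

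Ighv UMIs were also found in data outside the comparisons. The other deposited run held 5 Ighv UMIs in 9539 PEP-WT barcodes and 171 in 11029 PEP-619WW barcodes, with 0 and 15 Mzb1-high and 2 and 500 B barcodes. In the run used, barcodes outside the Mzb1-high, B and T classes held 401 Ighv UMIs in PEP-WT and 576 in PEP-619WW, and 10 and 13 of these barcodes could be assigned a gene.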

How the results depend on the processing

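No paired analysis was possible because each genotype had 1 library. Over 16 settings that gave values, 70 of 82 recomputed values stayed within the interval, or within 1.5 times the count or index, of the reported value. Many of the 70 had wide limits, so the tally does not measure stability. They include 6 for assigned B barcodes (interval -39.1 to 90.5 points) and 7 for genes in B barcodes, with 1 to 10 genes counted. Another 9 and 10 are the subgroup 1 gaps of switched and IgM barcodes (-13.1 to 9.05 and -7.73 to 16.5 points). The Ighv share ratio of Mzb1-high barcodes (1.18) was 1.23 with an Mzb1 minimum of 3 UMIs, 1.11 with 10 UMIs, 1.23 per UMIs not of immunoglobulin genes, 1.13 thinned to 1000 UMIs and 1.04 with at least 10 Jchain UMIs, and it turned to 0.908 with no Ms4a1 UMI. The class-switched share differed by 3.40 points (0.401 to 6.33) when 2 Ighv UMIs and 80% from 1 gene sufficed for assignment. The subgroup 1 gap of switched and IgM barcodes in PEP-WT was 16.6 points, in place of -2.36, when 10 Ighv UMIs and 80% were needed. Genes 2-fold apart in Mzb1-high barcodes numbered 11 of 49 with at least 200 UMIs and 45 of 105 with a UMI in each library. In B barcodes they numbered 4 of 31 with at least 20 UMIs and 27 of 84 with a UMI in each library. The share of all genes was computed only at the limit of 50 UMIs, so these counts have no background beside them. The causes of the moved values were not tested, beyond the different numbers of genes counted. The subgroup 1 difference in Mzb1-high barcodes stayed between -2.19 and -0.11 points (the interval left out 0 only for pooled UMIs, at -1.33 points) and the ratio of effective gene numbers between 0.877 and 0.980. The subgroup 1 difference in assigned B barcodes (50 points, from 1 PEP-WT and 2 PEP-619WW barcodes) carries no information. Pooled UMIs gave 0.15 points (-5.11 to 5.40). Assignment by 2 Ighv UMIs and 80% from 1 gene gave 8.70 points (-8.99 to 25.9), from 72 PEP-WT and 49 PEP-619WW barcodes. No gene in B barcodes reached 200 UMIs. The other run gave no value for any result, since its PEP-WT library held no Mzb1-high barcode and 2 B barcodes with 0 Ighv UMIs. Few UMIs widen the intervals of rarely used genes and of B barcodes.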
